A study of Mus musculus with 4 samples.

Results

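Cutting the sciatic nerve removes all motor input from the tibialis anterior (TA), a fast-twitch muscle of the lower leg, and the muscle then wastes. Denervated TA (WD) was compared here with sham TA (WS) of wild-type (WT) adult male mice, 14 days after surgery, across every gene that was read deeply enough. The comparison covered the 11266 genes, of 13825 in the count table, whose mean count over the WS and WD libraries was at least 50. Each library was made from the pooled RNA of 4 muscles, so each group is 1 sample, with no measure of the spread between mice. No call rests on a test of WD against WS, and a test at an assumed variation is given only as an alternative. A gene was called higher or lower when its 2 libraries stood at least 2-fold apart, and the 95% intervals given cover counting error only.

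Both WT groups carry an intact Fgf21 gene, whose own counts were not analysed here, so that the genotype labels were not checked. WT mice were C57BL/6J according to the methods of the study, and the background strain of the Fgf21KO mice is not given in the sources used here. The description of the series gives removal of a 2 mm piece of the left sciatic nerve for WD and an innervated right leg for WS, while the study's methods give a longer segment and a sham operation on the opposite limb, so each WS muscle is a leg of an operated animal. Sham (KS) and denervated (KD) TA of whole-body Fgf21 knockout (Fgf21KO) mice, also 1 pool of 4 muscles each, share no library with the WT pair and are given beside it as a second pair. Because whole muscle was sequenced, fewer cells of a type and less RNA per cell cannot be told apart.

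A motor nerve keeps muscle fibres in their mature state. Its electrical activity restricts acetylcholine receptors to the synapse, holds fibres in a fast or slow programme, and keeps protein synthesis and breakdown in balance. After nerve loss, class II histone deacetylases and stress-response transcription factors alter fibre gene expression, ubiquitin ligases and autophagy take proteins apart, and the cells between the fibres adapt as well.

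Of the 11266 genes, 715 (6.35%) stood at least 2-fold above sham in WD and 769 (6.83%) at least 2-fold below. These percentages are the background against which every gene group below should be read. Counts were scaled by the trimmed mean of M values (TMM), expressed as CPM (read counts scaled to the same effective library size in every library), and compared as log2 ratios of WD over WS with a prior count of 2. The median log2 ratio of all genes was 0.01, and 61.5% of genes lay within 0.5 of 0. The upper tail was longer than the lower one, since 188 genes were at least 4-fold higher and 63 at least 4-fold lower, and at 8-fold the numbers were 70 and 12. All 13825 genes in the count table had at least 1 read in every library. Genes without a read in any 1 library are therefore not covered, and the tails may be incomplete. The count table also lacks other genes, as it held only 2 genes of the myofibre marker list.

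**Figure D1:**
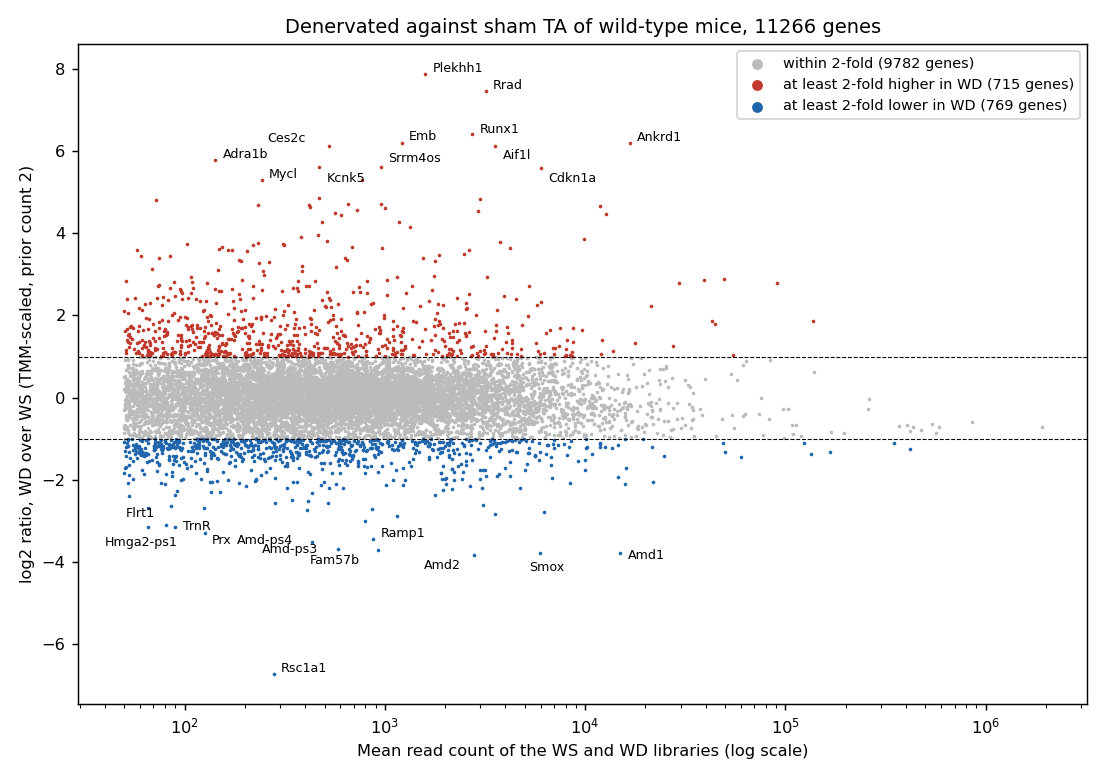
Each point is 1 gene, with its mean read count over the WS and WD libraries on the x axis (log scale) and its log2 ratio of WD over WS on the y axis; dashed lines mark 2-fold. The 715 genes in red and 769 in blue lie beyond 2-fold, the 12 highest and 12 lowest are named, and Rsc1a1 is the only gene below -4.

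The split between higher and lower genes depended on scaling. Higher genes were 48.2% of those beyond 2-fold with TMM, 78.4% when libraries were scaled to their total counts alone (1284 higher, 354 lower), and 63.5% when mitochondrially encoded genes were left out of those totals. Scaling to total counts moved the median of all genes to 0.29, so gene groups are described relative to the median gene. The 13 protein genes of the mitochondrial genome held 27.0% of all WS counts and 19.4% of all WD counts, and library totals were 25249879 and 29150147. The share of lower genes also ran with base composition, from 3.49% in the quintile of genes with the lowest GC content of the longest transcript to 11.8% in the quintile with the highest, whereas the share of higher genes stayed between 5.76% and 6.71%. Its part in the result was not tested. Centring the ratios within each quintile, an alternative chosen after the data were seen, left 703 higher and 703 lower genes.

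The share of called genes varied with depth. In the quintile of genes with the lowest mean counts 10.3% were higher and 10.3% lower, against 3.64% and 4.22% in the next to deepest and 6.13% and 7.32% in the deepest. Just inside the threshold, at mean counts of 50 to 55, 18 of 153 genes were higher and 19 lower, and just outside it, at 45 to 50, 25 of 154 were higher and 17 lower.

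The genes furthest above sham had varied functions. Plekhh1, a pleckstrin-homology protein with a cytoskeletal FERM domain, had 8 counts in WS and 3182 in WD, which is from 0.349 CPM in WS to 99.02 CPM in WD (log2 ratio 7.88, 95% counting interval 7.17 to 9.36). Rrad, a small GTP-binding protein that restrains L-type calcium channels, went from 1.05 CPM in WS to 198 CPM in WD (log2 ratio 7.47, 95% counting interval 6.99 to 8.21). Runx1, a transcription factor that preserves denervated fibres, went from 1.92 CPM in WS to 169 CPM in WD (log2 ratio 6.40, 95% counting interval 6.03 to 6.92). In all 3 genes the counting interval lay far above 2-fold, and the Fgf21KO pair gave log2 ratios of 6.97, 7.77 and 6.58.

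Ankrd1, a titin-associated ankyrin repeat protein induced by mechanical stress, was the most deeply read of these genes, at 323 counts in WS and 33261 in WD (log2 ratio 6.19). Emb, an adhesion molecule that chaperones monocarboxylate transporters, had 22 counts in WS and 2413 in WD (log2 ratio 6.18). Aif1l, an actin-bundling protein, had 71 counts in WS and 7053 in WD (log2 ratio 6.11), and the cell-cycle inhibitor Cdkn1a had 175 counts in WS and 11926 in WD (log2 ratio 5.59). Adra1b, the alpha-1B adrenergic receptor, rested on only 2 counts in WS against 283 in WD (log2 ratio 5.79, interval 4.79 to 9.71), so its size is poorly bounded. The other 4 of the 12 highest were Ces2c, a carboxylesterase (6.12), the noncoding Srrm4os (5.61), Kcnk5, a background potassium channel (5.60), and Mycl, a MYC-family factor (5.31).

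Some of these genes overlap others in the RefSeq annotation of GRCm38.p6. Plekhh1 overlaps Pigh (log2 ratio 1.11), Srrm4os overlaps Srrm4 (0.75) and Emb overlaps Gm35144 (1.05). All 3 partners lay above sham in WD, and how the counting tool shared reads between overlapping genes is not given in the sources used here.

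The lowest ratio, that of Rsc1a1 (552 counts in WS, 5 in WD, log2 ratio -6.73), belongs to a gene that lies within Ddi2, and Ddi2 itself had a log2 ratio of 0.05. Its value is therefore uncertain. Next lowest were genes of polyamine metabolism. Amd1, adenosylmethionine decarboxylase, went from 1187 CPM in WS to 86.04 CPM in WD (log2 ratio -3.78, 95% counting interval -3.84 to -3.73), and its near-identical copies Amd2 (-3.82), Amd-ps3 (-3.69) and Amd-ps4 (-3.52) cannot be read separately from it. Smox, spermine oxidase, went from 474 CPM in WS to 34.4 CPM in WD (log2 ratio -3.78, 95% counting interval -3.87 to -3.69).

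The remaining members of the 12 lowest came from several compartments. Fam57b, a ceramide synthase-like protein, had 1673 counts in WS and 178 in WD (log2 ratio -3.70). Ramp1, the partner subunit of the receptor for calcitonin gene-related peptide, a motor nerve peptide, had 1551 counts in WS and 200 in WD (log2 ratio -3.43). Prx, a Schwann cell protein of peripheral myelin, had 223 counts in WS and 30 in WD (log2 ratio -3.29). Flrt1, an adhesion protein (-3.09), the pseudogene Hmga2-ps1 (-3.16) and the mitochondrial tRNA TrnR (-3.14) rested on 115 to 157 counts in WS.

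Genes of the synapse differed one by one rather than as a group. Chrnb1, the beta subunit of the muscle acetylcholine receptor and the single receptor subunit analysed here, went from 38.7 CPM in WS to 216 CPM in WD (log2 ratio 2.48, 95% counting interval 2.38 to 2.59). Ncam1, the neural cell adhesion molecule that spreads over denervated fibres, went from 10.2 CPM in WS to 103 CPM in WD (log2 ratio 3.33, 95% counting interval 3.15 to 3.54). Ache, acetylcholinesterase of the synaptic cleft, went the other way, from 57.9 CPM in WS to 16.6 CPM in WD (log2 ratio -1.80, 95% counting interval -1.95 to -1.66). Of the 24 kept junction organisers, Ncam1 alone was at least 2-fold higher and Ache alone at least 2-fold lower, and the median was -0.13. Lrp4, the agrin receptor, had a log2 ratio of 0.60 and Agrn, agrin itself, -0.63. Erbb2 (0.42) and Erbb3 (0.27), receptors for nerve-derived neuregulin, stayed within 2-fold.

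The deacetylase switch is the best known link between nerve loss and synaptic gene expression. Hdac4, which represses MEF2-driven and repressor genes in denervated muscle, went from 44.97 CPM in WS to 294 CPM in WD (log2 ratio 2.71, 95% counting interval 2.61 to 2.80). Its relatives were lower, Hdac5 from 83.6 CPM in WS to 38.8 CPM in WD (log2 ratio -1.11, 95% counting interval -1.21 to -1.003) and Hdac7 with a log2 ratio of -1.33, while Hdac9 stood at -0.77. In the Fgf21KO pair Hdac5 was at -1.20, Hdac7 at -0.76 and Hdac9 at -0.90. These are RNA levels, and the study reported higher HDAC5 and HDAC7 protein in denervated TA. Dach1, a repressor of synaptic genes (-1.40), was lower, and Sik1, a kinase that phosphorylates class II deacetylases, had 8.47 CPM in WS and 90.3 CPM in WD (log2 ratio 3.40). The calmodulin kinases split, with Camk2d (1.46) and Camk2b (1.06) beyond 2-fold above sham and Camk2g (-0.96) and Camk1 (-0.94) just short of 2-fold below it. In the whole list of 31 genes 5 were higher (16.1%) and 4 lower (12.9%).

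Of 14 kept myogenic regulators and satellite cell genes, 2 were higher and 0 lower. Their median was 0.32, with 8 above sham and 6 below, and Myod1 and Myog were not among the 14. Sdc4, a heparan sulphate proteoglycan of satellite cells and other cells, had 17.4 CPM in WS and 55.8 CPM in WD (log2 ratio 1.68), and Mef2a, a MEF2 factor of differentiated fibres, had 188 CPM in WS and 388 CPM in WD (log2 ratio 1.04). Mef2c (0.40) and Mef2d (-0.35) remained within 2-fold and lay on opposite sides of sham.

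Several slow and embryonic isoforms of the contractile apparatus were higher, among the few fibre-type genes analysed here. Tnnt1, slow troponin T, went from 6.37 CPM in WS to 46.1 CPM in WD (log2 ratio 2.84, 95% counting interval 2.61 to 3.11), and Atp2a2, the slow-fibre and cardiac calcium pump of the sarcoplasmic reticulum, went from 44.3 CPM in WS to 195 CPM in WD (log2 ratio 2.14, 95% counting interval 2.04 to 2.24). Myl4, the embryonic and atrial essential light chain, had 7.64 CPM in WS and 28.8 CPM in WD (log2 ratio 1.91). Tnnc1, slow troponin C, did not share this size of difference, at 0.03, and the tropomyosin Tpm3 was at -0.54. In the slow list 3 of 7 genes were higher, Tnnt1, Atp2a2 and Hspb7, a small heat shock protein (1.80), and 0 lower. The list median of 0.91 was the value of Fhl1, which is also in the mechanical-stress list, and the tropomyosin Tpm2 was at -0.27. The median is therefore not that of slow contractile isoforms.

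All 5 kept genes of the fast list lay below sham. Tpm1, tropomyosin 1, had 18259 CPM in WS and 8569 CPM in WD (log2 ratio -1.09) and Eno3, muscle enolase, had 7605 CPM in WS and 2949 CPM in WD (log2 ratio -1.37). Mylpf, the fast regulatory light chain (-0.85), Tnni2, fast troponin I (-0.83), and Myh1, the fast IIx myosin heavy chain (-0.63), fell short of 2-fold. Myh1 was also the most counted nuclear gene of those analysed here, with 2.24% of all counts in WS and 1.75% in WD. Only 2 genes of the myofibre marker list were in the count table, so this rank does not check the muscle label. Scaling to total counts moved ratios up by about the shift of the median gene, and the median of the 5 was -0.57 there.

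Among scaffold proteins of the sarcomere the range was wide. Myom3, an M-band protein of slow and intermediate fibres, went from 34.4 CPM in WS to 768 CPM in WD (log2 ratio 4.48, 95% counting interval 4.38 to 4.59). Csrp3, the Z-disc LIM protein also known as MLP, had 65.7 CPM in WS and 329.6 CPM in WD (log2 ratio 2.32) and Lmod2, which nucleates thin filaments, had 138 CPM in WS and 445 CPM in WD (log2 ratio 1.68). Synm, the intermediate filament protein synemin, went from 1433 CPM in WS to 345 CPM in WD (log2 ratio -2.06, 95% counting interval -2.09 to -2.03), opposite to its partner desmin (Des, 0.63). Of 17 kept scaffold genes 4 were higher and 3 lower. Beside Ankrd1 and Csrp3, the mechanical-stress list held Mustn1, a small musculoskeletal protein (1.72), Xirp1, a Xin actin-binding protein (0.81), and Ankrd23 (-0.28), an ankyrin repeat protein related to Ankrd1 that stayed close to sham.

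Membrane-support genes showed smaller differences. Dystrophin (Dmd, 0.31), utrophin (Utrn, -0.24) and dystroglycan (Dag1, -0.47) were all within 2-fold, and of 18 kept members of the complex and its glycosylation enzymes 0 were higher and 1 lower. Of caveola genes, Cav1 (-0.999), Cav2 (-1.07), Cavin2 (-1.16) and the caveolar ATPase Ehd2 (-1.09) lay below sham, all but Cav1 beyond 2-fold. The share of 23 caveola and membrane-repair genes at least 2-fold lower was 17.4% with TMM, 0% scaled to total counts only and 4.35% with mitochondrially encoded genes left out of the totals. These genes are also abundant in endothelial cells, whose markers moved the same way (below), and the part of that in the result was not tested. Capn3, the muscle calpain of limb-girdle dystrophy, had a log2 ratio of -1.06.

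Metallothioneins, small cysteine-rich proteins that bind zinc and copper, were both higher in WD. Mt2 went from 1.44 CPM in WS to 39.6 CPM in WD (log2 ratio 4.71, 95% counting interval 4.28 to 5.33) and Mt1 went from 6.51 CPM in WS to 31.6 CPM in WD (log2 ratio 2.27, 95% counting interval 2.03 to 2.54). In the Fgf21KO pair the log2 ratio was 5.18 for Mt2 and 2.71 for Mt1. They lie beside each other on chromosome 8, and their promoters are shown because metallothionein transcription is a textbook case of control through metal response elements. Each line gives 250 bases before to 50 bases after the RefSeq start, plus strand, GRCm38.p6, with matches to the element core TGCACNC or TGCGCNC on either strand in capitals.
Mt2, chr8:94172368-94172667: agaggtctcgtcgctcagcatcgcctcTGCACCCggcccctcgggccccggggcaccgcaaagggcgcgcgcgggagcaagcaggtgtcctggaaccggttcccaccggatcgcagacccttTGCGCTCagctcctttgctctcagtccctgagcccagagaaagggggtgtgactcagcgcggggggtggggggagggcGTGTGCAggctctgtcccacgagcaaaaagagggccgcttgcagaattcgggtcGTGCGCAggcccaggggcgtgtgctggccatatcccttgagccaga
Mt1, chr8:94178839-94179138: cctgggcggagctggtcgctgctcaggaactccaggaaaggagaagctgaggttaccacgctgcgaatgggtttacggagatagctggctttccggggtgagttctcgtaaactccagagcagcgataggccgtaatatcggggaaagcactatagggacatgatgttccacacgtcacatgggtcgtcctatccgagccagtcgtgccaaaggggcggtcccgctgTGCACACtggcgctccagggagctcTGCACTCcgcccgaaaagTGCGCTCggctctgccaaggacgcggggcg
The Mt2 window held 4 matches and the Mt1 window 3. At least 1 match was present in 25.7% of all 32851 RefSeq windows and in 36.1% of the 11204 windows of kept genes, so a match by itself is common. Mtf1, the zinc-sensing factor that binds the element (-0.24), and Slc30a1, a zinc exporter (-0.17), were close to sham in RNA level.

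The wider antioxidant list stood above the median gene, with 13 of 64 genes higher (20.3%, against 6.35% of all genes), 3 lower and a median of 0.39. Hmox1, haem oxygenase, had 6.07 CPM in WS and 17.7 CPM in WD (log2 ratio 1.53). Txn1, thioredoxin, had 35.9 CPM in WS and 110.3 CPM in WD (log2 ratio 1.62) and Srxn1, sulfiredoxin, had 31.1 CPM in WS and 83.1 CPM in WD (log2 ratio 1.41). Pgd, which supplies NADPH through the pentose phosphate pathway, had 15.7 CPM in WS and 57.4 CPM in WD (log2 ratio 1.87). Mgst3, a microsomal glutathione transferase (-1.76), Msrb3, a methionine sulfoxide reductase of the endoplasmic reticulum (-1.27), and Mgst1 (-1.13) were the 3 lower members, and mitochondrial Sod2 stood at -0.83.

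Genes of the integrated stress response showed a split. This response halts general translation and, through the factor ATF4, turns on amino acid and one-carbon genes. Mthfd2, a mitochondrial folate enzyme, went from 3.62 CPM in WS to 37.8 CPM in WD (log2 ratio 3.36, 95% counting interval 3.06 to 3.72). Asns, asparagine synthetase, went from 1.14 CPM in WS to 6.25 CPM in WD (log2 ratio 2.39, 95% counting interval 1.87 to 3.11) and Psat1, of serine synthesis, had 1.22 CPM in WS and 6.54 CPM in WD (log2 ratio 2.35). Slc7a5, the leucine transporter, had 1.62 CPM in WS and 14.2 CPM in WD (log2 ratio 3.08), and Atf3, a stress-induced repressor, had 2.84 CPM in WS and 20.9 CPM in WD (log2 ratio 2.85). Atf4 RNA itself was lower (-0.63), within 2-fold, though ATF4 is controlled mainly at translation.

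Other genes usually placed under ATF4 were below sham. Chac1, a glutathione-degrading enzyme, went from 79.5 CPM in WS to 31.5 CPM in WD (log2 ratio -1.34, 95% counting interval -1.45 to -1.23), and Gpt2, an alanine aminotransferase, had 407 CPM in WS and 131 CPM in WD (log2 ratio -1.63). The last serine step, Psph (-0.81), was also below sham, while Trib3 (1.37) was above it. Of 43 kept genes 7 were higher and 2 lower, and the median of 0.09 was near that of all genes. The promoters of 4 of these genes are shown because the ATF4 composite element, with the letters TGATGNAA, is short and readable; matches on either strand are in capitals, and each window runs 250 bases before to 50 after the RefSeq start on the strand named (GRCm38.p6).
Asns, minus strand, chr6:7693160-7693459: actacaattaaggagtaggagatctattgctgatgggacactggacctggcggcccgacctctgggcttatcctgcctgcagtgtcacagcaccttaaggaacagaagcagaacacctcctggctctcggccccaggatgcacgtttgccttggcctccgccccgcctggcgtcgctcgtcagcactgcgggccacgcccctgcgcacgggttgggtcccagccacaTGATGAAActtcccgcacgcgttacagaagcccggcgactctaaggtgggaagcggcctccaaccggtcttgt
Atf3, minus strand, chr1:191183284-191183583: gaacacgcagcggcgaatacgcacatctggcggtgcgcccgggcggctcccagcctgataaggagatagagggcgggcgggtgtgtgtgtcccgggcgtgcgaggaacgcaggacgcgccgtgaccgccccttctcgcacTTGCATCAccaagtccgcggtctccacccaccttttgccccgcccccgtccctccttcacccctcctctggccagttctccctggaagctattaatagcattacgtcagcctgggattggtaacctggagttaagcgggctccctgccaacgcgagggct
Trib3, minus strand, chr2:152344011-152344310: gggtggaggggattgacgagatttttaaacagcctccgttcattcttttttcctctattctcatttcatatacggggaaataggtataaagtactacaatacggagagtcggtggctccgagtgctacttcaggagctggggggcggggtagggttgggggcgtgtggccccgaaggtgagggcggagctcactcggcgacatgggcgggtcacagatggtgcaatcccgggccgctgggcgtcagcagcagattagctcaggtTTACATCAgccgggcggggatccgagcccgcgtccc
Chac1, plus strand, chr2:119350992-119351291: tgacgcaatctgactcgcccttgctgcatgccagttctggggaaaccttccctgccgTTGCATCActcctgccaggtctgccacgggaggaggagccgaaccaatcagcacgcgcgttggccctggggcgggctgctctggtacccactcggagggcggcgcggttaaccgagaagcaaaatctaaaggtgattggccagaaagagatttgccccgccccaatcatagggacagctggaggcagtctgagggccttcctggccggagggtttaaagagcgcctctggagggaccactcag
Each of the 4 windows held 1 match and is shown for that reason, so they are no comparison with the 2.18% of the windows of kept genes that held any. Asns, Atf3 and Trib3 were higher in WD, and Chac1 with the same element was lower. The windows of Ddit3, Mthfd2 and Gpt2, and both windows of Psat1, held none.

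The protein-degradation genes differed modestly and unevenly. Fbxo32, the muscle ubiquitin ligase atrogin-1, went from 296 CPM in WS to 649 CPM in WD (log2 ratio 1.13, 95% counting interval 1.09 to 1.17), and Fbxo30, the ligase MUSA1 that is held down by BMP signals, went from 20.6 CPM in WS to 59.3 CPM in WD (log2 ratio 1.52, 95% counting interval 1.38 to 1.67). Foxo1, the transcription factor that drives both, had 22.8 CPM in WS and 58.3 CPM in WD (log2 ratio 1.35), while Foxo4 stood at -0.89. Asb2 (-1.53) and Asb4 (-1.66), which are substrate receptors of cullin ligases, were lower. Across the list of 45 kept ligases, deubiquitinases and FoxO factors 4 were higher and 2 lower, shares of 8.89% and 4.44% that are close to the background.

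The proteasome differed in another way, by a small shift shared by most subunits. Of 49 kept genes 41 lay above sham and 8 below, the median was 0.41, and Pomp, the assembly chaperone, alone passed 2-fold (1.08). Scaled to total counts only, 20.4% were at least 2-fold higher. Psmc1, an ATPase of the cap (0.99), Psmd11 (0.94) and Psmb5, the chymotrypsin-like catalytic subunit (0.82), came next. The inducible immunoproteasome subunits Psmb8 (-0.60) and Psmb9 (-0.57) lay lowest. These 2 rested on 58 to 134 counts a library.

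Among autophagy genes Map1lc3a, a ubiquitin-like protein of the autophagosome, went from 157 CPM in WS to 490.0 CPM in WD (log2 ratio 1.64, 95% counting interval 1.59 to 1.69) and its relative Gabarapl1 had 47.8 CPM in WS and 100.4 CPM in WD (log2 ratio 1.07). The cargo receptors Sqstm1 (0.70) and Nbr1 (0.84) were above sham, within 2-fold. The initiating kinases Ulk1 (-0.69) and Ulk2 (-0.77), and Tfeb, the master factor of lysosome genes (-1.06), were below it. In the core list 2 of 50 were higher and 2, Tfeb and Atg4d (-1.03), lower, shares below the background.

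In the lysosome list 9 of 60 genes (15%) were higher and 1 lower. Ctsl, cathepsin L, the protease most often raised in wasting muscle, went from 118 CPM in WS to 382 CPM in WD (log2 ratio 1.69, 95% counting interval 1.63 to 1.75). Atp6v1a, the catalytic subunit of the proton pump, had 26.5 CPM in WS and 97.4 CPM in WD (log2 ratio 1.87), and its partner Atp6ap2 had 15.1 CPM in WS and 47.8 CPM in WD (log2 ratio 1.65). Gpnmb (3.71), Cd68 (3.35) and Ctss (1.69) are typical of macrophages, whose markers were higher in WD as described below. Psap, the saposin precursor, was the 1 lower gene (-1.001).

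Cytosolic ribosomal protein genes all lay above sham, most of them by less than 2-fold. Of 82 kept cytosolic ribosomal protein genes, 82 lay above sham, 8 were at least 2-fold higher (9.76%) and 0 lower. Scaled to total counts only, 52.4% were at least 2-fold higher. Their median was 0.72, the highest of the 51 function lists with 10 or more kept genes, and together they reached 14548 CPM in WS against 24214 in WD. The Fgf21KO pair had 14999.8 CPM in KS and 23331 in KD. The interquartile range ran from 0.62 to 0.86, so most of these genes moved by a like amount. Ribosomal protein genes have many processed pseudogenes that can share their reads.

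Rpl3 stood apart within this family. It went from 47.2 CPM in WS to 248 CPM in WD (log2 ratio 2.39, 95% counting interval 2.30 to 2.49), followed by Rps27a (1.27) and Rpl13a (1.10). Rpl3 is the general form of a subunit that adult muscle partly replaces by a muscle-specific relative. Eef1a1, the elongation factor that developing muscle uses and adult fibres exchange for a sister form, went in the same way, from 308 CPM in WS to 2231 CPM in WD (log2 ratio 2.86, 95% counting interval 2.82 to 2.89). Eif4a1, the RNA helicase of initiation, had 108 CPM in WS and 339.9 CPM in WD (log2 ratio 1.65). The translation repressor Eif4ebp2 was lower (-1.12), and among 55 kept factors 3 were higher and 1 lower, with a median of 0.26.

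Mitochondrial ribosomal proteins did not share the shift. Of 78 kept genes 0 were higher and 0 lower, the range was -0.75 to 0.67, and the median was 0.07.

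Chaperones followed the cytosolic ribosome in direction. Of 60 kept heat shock genes 10 were higher (16.7%) and 2 lower, with a median of 0.43 and a summed level of 10134 CPM in WS and 17999 CPM in WD. Hspb8, a small heat shock protein that feeds damaged filaments to autophagy, went from 376 CPM in WS to 2796 CPM in WD (log2 ratio 2.90, 95% counting interval 2.86 to 2.93). Hspb7, a small heat shock protein of heart and muscle (1.80), Hsp90aa1, the inducible cytosolic HSP90 (1.57), and Cryab, alpha-B crystallin (1.25), followed. Dnajb5 (-1.15) and Fkbp5, a glucocorticoid-induced cochaperone (-1.06), were lower. The endoplasmic reticulum list did not exceed the background, with 2 of 65 higher, 2 lower and a median of 0.13.

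**Figure D2:**
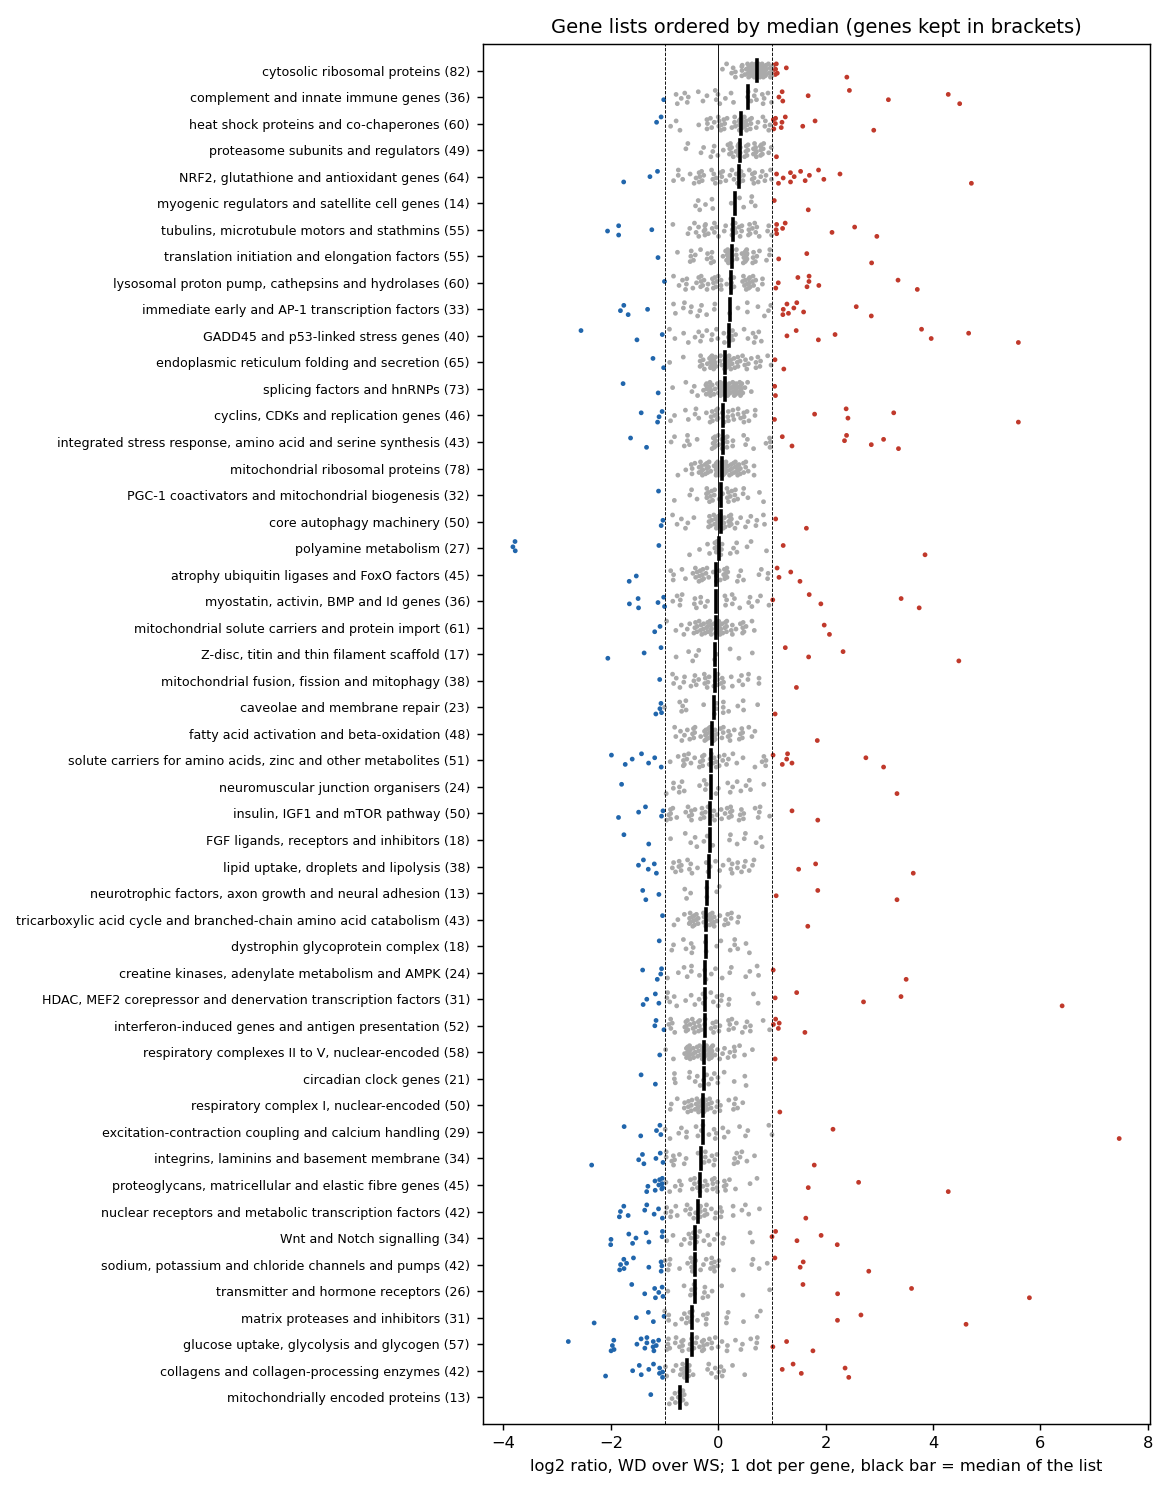
Each row is 1 function list with at least 10 kept genes, each dot 1 gene, the x axis its log2 ratio of WD over WS, and the black bar the median of the list; dashed lines mark 2-fold. Cytosolic ribosomal proteins have the highest median (0.72) and mitochondrially encoded proteins the lowest (-0.72), while most lists centre near 0 and spread both ways.

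Genes of glucose use were lower more often than the background. Of 57 kept genes of glucose uptake, glycolysis and glycogen 15 were lower (26.3%, against 6.83% of all genes) and 3 higher, with a median of -0.50. Together they reached 79868 CPM in WS against 43193 in WD. Slc16a3, the lactate exporter of glycolytic fibres, went from 453 CPM in WS to 65.3 CPM in WD (log2 ratio -2.79, 95% counting interval -2.86 to -2.73). Gpd1, which shuttles electrons from glycolysis, had 929 CPM in WS and 242 CPM in WD (log2 ratio -1.94). The bifunctional enzymes Pfkfb1 (-1.996) and Pfkfb3 (-1.95) and Tigar (-1.97), which together set the level of the glycolytic activator fructose 2,6-bisphosphate, were all lower.

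The genes named next were chosen by their place in the pathway after their values were seen, and all of them lay below sham, while 13 of the 57 genes of the list lay above it. Slc2a4, the insulin-responsive glucose transporter GLUT4, had a log2 ratio of -1.15 and Hk2, muscle hexokinase, -0.21. Glycogen phosphorylase (Pygm) was at -1.33, its kinase subunit Phka1 at -1.20 and glycogen synthase (Gys1) at -0.68. Below them Pfkm was at -1.11, Aldoa at -0.72, Tpi1 at -1.33, Gapdh at -0.94, Pgk1 at -0.65, Eno3 at -1.37, Pkm at -0.67 and Ldha at -1.44. Hk2 and Ldhb (-0.27), the lactate dehydrogenase of oxidative tissue, were the closest to sham of these.

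The 3 higher genes of the list were Stbd1, Gbe1 and Pdk3, a pyruvate dehydrogenase kinase (1.27). Stbd1, which ties glycogen to membranes for lysosomal breakdown, went from 54.7 CPM in WS to 186 CPM in WD (log2 ratio 1.76, 95% counting interval 1.68 to 1.85) and Gbe1, the glycogen branching enzyme, had 109 CPM in WS and 221 CPM in WD (log2 ratio 1.02). Pdk4, which shuts pyruvate out of mitochondria, had 631 CPM in WS and 1022 CPM in WD (log2 ratio 0.70), within 2-fold.

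**Figure D3:**
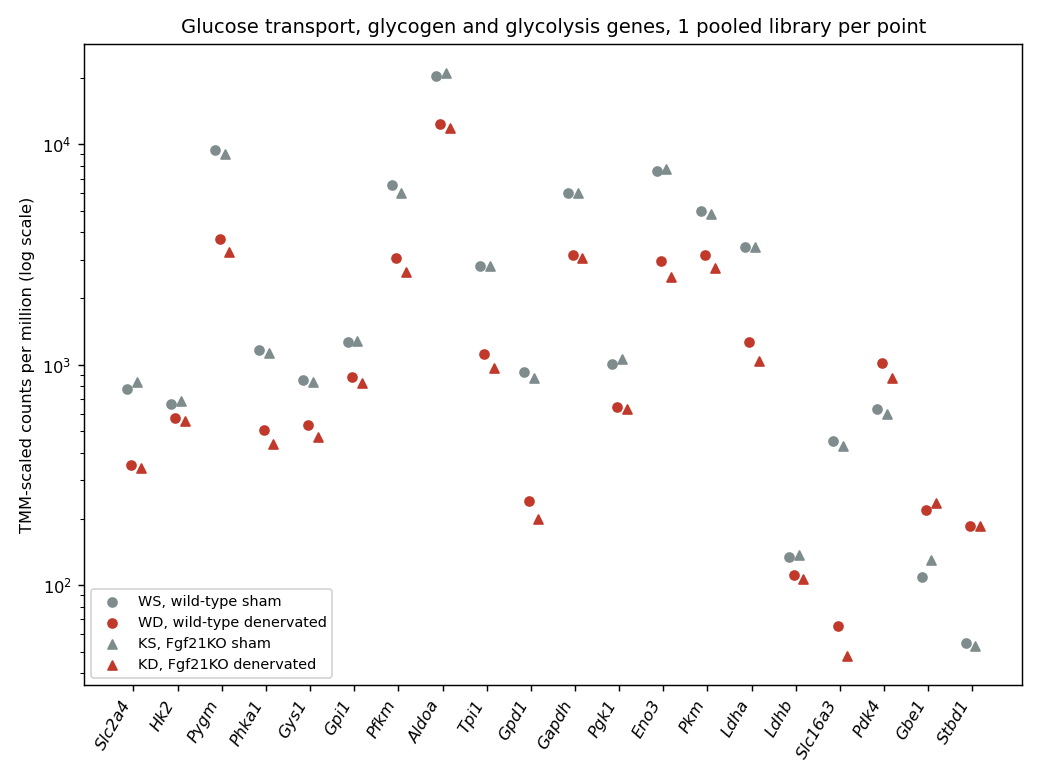
TMM-scaled CPM (log scale) of 20 genes, chosen after their values were seen, in each of the 4 libraries, 1 pooled library per point, ordered from uptake and glycogen through glycolysis to lactate export and 3 genes on side branches. From Slc2a4 to Slc16a3 each red point lies below its grey partner in both genotypes, and Pdk4, Gbe1 and Stbd1 lie above it. Scaling was done within each pair, so WT and Fgf21KO points are not on a common TMM scale.

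Energy-buffer genes followed in part. Adssl1, the muscle adenylosuccinate synthase of the purine nucleotide cycle, went from 1423 CPM in WS to 536 CPM in WD (log2 ratio -1.41, 95% counting interval -1.43 to -1.38), whereas Ampd3, a non-muscle AMP deaminase, went from 12.8 CPM in WS to 146 CPM in WD (log2 ratio 3.50, 95% counting interval 3.34 to 3.68). The AMPK subunits Prkab2 (-1.14), Prkag2 (-1.07) and Prkaa2 (-1.06) were lower, while Prkaa1, the widely expressed catalytic subunit, stood at 0.51. Of the 24 genes of the list 16.7% were at least 2-fold lower with TMM and 4.17% under either scaling to total counts.

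Oxidative genes shifted by less. The median of nuclear-encoded complex I was -0.28, with 41 of 50 genes below sham, and that of complexes II to V was -0.26, with 46 of 58 below. Across both lists Ndufaf2, a complex I assembly factor (1.15), and Slc25a5 were at least 2-fold higher, and Cox10, a haem synthesis enzyme (-1.09), at least 2-fold lower. Scaled to total counts the 2 medians were 0.002 and 0.02, against 0.29 for all genes. Slc25a4, the ADP/ATP carrier of muscle, was at -0.98 and Slc25a5, the carrier of growing cells, at 1.06.

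All 13 mitochondrially encoded protein genes lay below sham, from -1.26 (ND2) to -0.59 (CYTB), with a median of -0.72. The mitochondrial tRNAs were lower still. Of 14 kept tRNA genes 13 were at least 2-fold lower, with a median of -2.09, and TrnS1 was the exception (-0.54). TrnM went from 1358 to 237 counts (log2 ratio -2.99). The ribosomal RNAs mt-Rnr1 (-0.73) and mt-Rnr2 (-1.10) stood between. A poly(A)-selected library keeps tRNA only as part of longer or oligoadenylated transcripts, so these counts do not measure mature tRNA.

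Few genes of lipid oxidation and the citric acid cycle were beyond 2-fold. Of 48 kept fatty acid oxidation genes Acsl3, an acyl-CoA synthetase of lipid droplets (1.84), was higher and 0 lower, and in the citric acid cycle and branched-chain list Me2, a malic enzyme (1.67), was higher and Ppm1k, the phosphatase that activates branched-chain catabolism (-1.04), lower. Lpin2, a phosphatidate phosphatase, went from 4.54 CPM in WS to 57.1 CPM in WD (log2 ratio 3.63, 95% counting interval 3.37 to 3.95), opposite to the main muscle form Lpin1 (-0.83). Lpl, lipoprotein lipase (-1.19), and Gpihbp1, its anchor on capillary endothelium (-1.30), were both lower. Ppargc1a, the coactivator of mitochondrial biogenesis, was at 0.46 and its partner Esrra at -1.11, and Tfam, which packages mitochondrial DNA, at -0.21.

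Polyamine genes moved further than their median (0.01) shows. Odc1, ornithine decarboxylase, the first step, had 142 CPM in WS and 329 CPM in WD (log2 ratio 1.21), while Amd1, which supplies the aminopropyl group, and Smox, which turns spermine back to spermidine, had 13.8-fold and 13.7-fold less in WD. The synthases lay close to sham, with Srm at 0.07 and Sms at 0.22. Atp13a3, a polyamine importer, went from 40.7 CPM in WS to 589 CPM in WD (log2 ratio 3.85, 95% counting interval 3.76 to 3.95), and its relative Atp13a2, which exports polyamines from lysosomes, stood at -1.11. The Fgf21KO pair gave -4.06, -4.18 and 4.15 for Amd1, Smox and Atp13a3.

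Stress and growth-arrest genes held some of the largest ratios. Gadd45a, a nuclear stress protein downstream of HDAC4 and ATF4, went from 28.3 CPM in WS to 718 CPM in WD (log2 ratio 4.66, 95% counting interval 4.55 to 4.78). Its 2 relatives went the other way, Gadd45b from 36.6 CPM in WS to 6.16 CPM in WD (log2 ratio -2.56, 95% counting interval -2.80 to -2.34) and Gadd45g with 37.4 CPM in WS and 13.04 CPM in WD (log2 ratio -1.51). Eda2r, a death-domain receptor induced by p53 and linked to muscle wasting, had 16.1 CPM in WS and 223 CPM in WD (log2 ratio 3.79). Bbc3, the death protein PUMA, had 26 counts in WS and 139 in WD (log2 ratio 1.86). Of 40 kept genes 8 were higher (20%) and 3 lower.

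Cell-cycle genes went both ways. Besides Cdkn1a, the brake Rb1 had 23.7 CPM in WS and 127 CPM in WD (log2 ratio 2.42), and E2f2 (2.38), Rrm2, the small subunit of ribonucleotide reductase (3.27), and Mcm6 of the replication helicase (1.79) were higher. Aurka, a mitotic kinase (-1.43), and Tk1, thymidine kinase (-1.13), were lower. In all 6 of 46 genes were higher and 4 lower.

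Immediate early genes went both ways. Junb went from 6.42 CPM in WS to 38.5 CPM in WD (log2 ratio 2.57, 95% counting interval 2.34 to 2.84) and Myc had 107 counts in WS and 375 in WD (log2 ratio 1.31). Srf, the factor that many of them depend on, was at -1.32, Nr4a1, an orphan nuclear receptor responsive to nerve activity, at -1.76, and Maf at -1.82. In total 9 of 33 were higher (27.3%) and 4 lower.

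Nuclear receptors and metabolic factors leaned down, with 9 of 42 lower (21.4%), 1 higher and a median of -0.38. Rxrg (-1.84) and Rxra (-1.33), the partners of many receptors, and Thra, the thyroid hormone receptor of muscle (-1.37), were among them. Vegfa, the main angiogenic factor, had 364 CPM in WS and 177 CPM in WD (log2 ratio -1.04), and Egln1, the oxygen sensor, was at -1.19. Tead4, a Hippo-pathway factor of growing muscle, was the single higher gene (1.63). Of 21 clock genes the output factors Hlf (-1.17) and Bhlhe41 (-1.44) were lower, while the core genes Clock (0.49), Arntl (0.30) and Per2 (0.11) stayed within 2-fold.

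Growth-factor pathways showed opposing members. Fst, follistatin, which traps activin and myostatin, went from 1.31 CPM in WS to 18.4 CPM in WD (log2 ratio 3.74, 95% counting interval 3.29 to 4.39), and Id2, an inhibitor of bHLH factors and a BMP target, had 3.41 CPM in WS and 36.8 CPM in WD (log2 ratio 3.41). Of the activin and myostatin receptors, Acvr2b (-1.65) and Acvr1b (-1.12) were lower. Acvr2a was not, with a log2 ratio of 0.16 after centring within its GC quintile. The transforming growth factor receptor Tgfbr1 was higher (1.69). Igfbp5, the insulin-like growth factor binding protein most abundant in muscle, had 622 CPM in WS and 2246 CPM in WD (log2 ratio 1.85), and Igfals (-1.86) and Igfbp3 (-1.35), which carry the factor in blood, were lower. Within the FGF family, of which Fgf21 was not analysed here, 0 of 18 kept genes were higher. Fgf2 (-1.76) and the feedback inhibitor Spry4 (-1.29) were lower. In the Fgf21KO pair 2 of the 18 were at least 2-fold higher and 1 lower. Fgfr3 (0.82) and Fgfr4 (-0.51) stayed within 2-fold in WT. The study reported higher Fgf21 and Fgf13 mRNA in denervated TA, and higher Fgfr4 mRNA at an earlier time.

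The Notch and Wnt list contained both vessel and fibre genes. Hes6, an antagonist of Hes1 (2.22), the ligand Dll1 (1.92) and Notch2 (1.47) were higher. Notch1 (-1.60), Notch3 (-1.53), Notch4 (-1.29) and the ligand Dll4 (-1.67), which endothelial and mural cells express, were lower, as was Fzd7, a Wnt receptor (-2.003). In this list 5 of 34 were higher and 9 lower (26.5%).

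Ion handling leaned down. Among sodium, potassium and chloride channels and pumps 10 of 42 genes were lower (23.8%) and 4 higher, with a median of -0.44. Scn4b, an auxiliary subunit of the muscle sodium channel, went from 979 CPM in WS to 300.0 CPM in WD (log2 ratio -1.71, 95% counting interval -1.74 to -1.67), whereas Scn3a, a neuronal and embryonic sodium channel, had 19 counts in WS and 200 in WD (log2 ratio 2.80). Aqp4, the water channel of fast fibres (-1.76), Aqp1, that of capillaries (-1.75), and Kcnn2, a calcium-activated potassium channel (-1.82), were lower. Panx1, a large-pore channel (1.53), was higher.

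In excitation-contraction coupling 2 of 29 genes were higher, Rrad and Atp2a2, and 5 lower, among them Calm3, a calmodulin gene (-1.15), Itpr3, an IP3 receptor (-1.44), and Cacnb3 (-1.75), a calcium channel subunit with 88 counts in WS and 35 in WD. Receptors for transmitters and hormones went apart. Chrm3, a muscarinic receptor (5 and 111 counts), Npr3, the natriuretic peptide clearance receptor (2.22), and Cntfr, the receptor for ciliary neurotrophic factor (1.58), were higher. Agtr1a, the angiotensin receptor (-1.61), and Lifr (-1.17) were lower. The counts were 4 higher and 7 lower of 26 in WT and 6 higher and 3 lower in Fgf21KO muscle, and scaled to total counts only 7.69% were lower in WT.

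Amino acid and other carriers were called equally often in both directions, with 7 higher and 7 lower of 51. That is 13.7% each, against 6.35% and 6.83% of all genes. Slc38a1 and Slc38a2, which carry glutamine, had log2 ratios of 2.75 and 1.19, and Slc7a2, a cationic amino acid carrier, stood at -1.73 and Slc41a3, a magnesium carrier, at -1.99.

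Microtubule genes were among those with large ratios. Map1b, a neuronal and regenerative microtubule protein, went from 12.97 CPM in WS to 101 CPM in WD (log2 ratio 2.95, 95% counting interval 2.79 to 3.14), and Tubb6, a beta-tubulin of immature and dystrophic fibres, went from 12.05 CPM in WS to 70.4 CPM in WD (log2 ratio 2.54, 95% counting interval 2.37 to 2.73). Tuba1b (1.25), Tuba1c (1.09) and Tubb2a (1.09) were higher and Tuba8, the adult muscle and heart alpha-tubulin, lower (-1.85). Tppp, which bundles microtubules, was the lowest (-2.06). Tubulin genes are close copies, so reads may be shared between them.

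Markers of the cells between the fibres moved by cell type. All 12 kept endothelial markers lay below sham, 6 of them at least 2-fold, with a median of -1.03. Their summed level was 960.1 CPM in WS and 489 in WD. Flt1 and Kdr, receptors for vascular endothelial growth factor, were at -1.45 and -1.27, and Cdh5, the junction cadherin, at -1.26. Mural cell markers were lower in 7 of 8, with Pdgfrb at -1.44, Acta2 at -1.40 and Abcc9 (-0.13) the exception. Summed they were 1194 CPM in WS and 701 in WD. Under scaling to total counts the share of endothelial markers at least 2-fold lower was 8.33%, and that of mural markers was 75%, against 87.5% with TMM. In the Fgf21KO pair 1 of the 12 endothelial and 6 of the 8 mural markers were at least 2-fold lower, with medians of -0.84 and -1.10.

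Of 11 fibroblast markers 10 lay below sham, with a median of -0.44, and only Col1a1 was beyond 2-fold. Dcn, decorin, was at -0.11, Pdgfra at -0.40 and Pi16, a marker of adventitial progenitors, at 0.72. Schwann cell markers differed in size, with myelin genes Prx (-3.29) and Pmp22 (-2.13) lower and Mbp (-0.68) and Cnp (-0.82) within 2-fold. Haemoglobin genes lay between -0.50 (Hba-a1) and -0.42 (Hbb-bt) in WT and between -1.01 and -0.92 in Fgf21KO muscle. Kit, the only mast cell marker analysed, had 136 counts in WS and 63 in WD (log2 ratio -1.56).

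Macrophage markers were higher. Of 16 markers with counts, 10 reached the count threshold. All 10 lay above sham and 6 (60%) were at least 2-fold higher, with a median of 1.09. With the deposited log2 values the share at least 2-fold higher was 30%. In the Fgf21KO pair 3 of the 10 were at least 2-fold higher, with a median of 0.64. The summed level of the 10 was small, 37.9 CPM in WS and 85.2 in WD, with 42.9 in KS and 80.3 in KD. Cd68, a lysosomal glycoprotein, went from 1.004 CPM in WS to 10.9 CPM in WD (log2 ratio 3.35, 95% counting interval 2.83 to 4.12), Mrc1, the mannose receptor of resident macrophages, had 6.37 CPM in WS and 14.3 CPM in WD (log2 ratio 1.15), and Csf1r, the survival receptor of the lineage, had 69 counts in WS and 203 in WD (log2 ratio 1.05). Only Cd68 was more than 4-fold apart. The class II antigen-presentation genes H2-Aa (1.12), H2-Eb1 (1.14) and Cd74 (0.96) had a like size. The 3 neutrophil markers in the count table were under the count threshold, and lymphocyte markers were not analysed here.

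**Figure D4:**
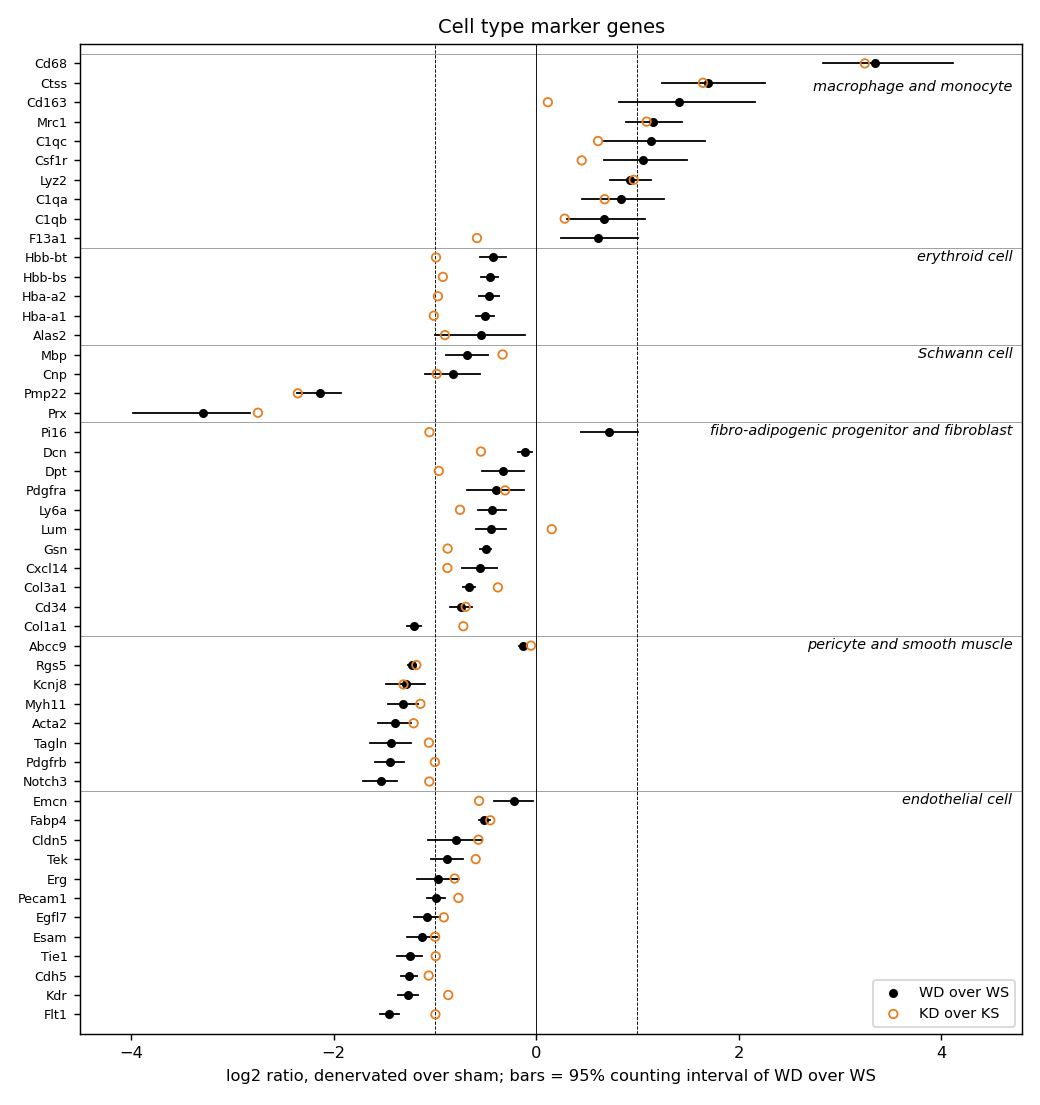
Log2 ratios of kept marker genes, with WD over WS as filled points with 95% counting intervals and KD over KS as open orange points; dashed lines mark 2-fold. All endothelial and mural markers lie below 0 and all macrophage markers above 0 in WT muscle, while F13a1, Pi16 and Cd163 differ most between the pairs in their groups.

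Innate immune genes had the second highest median of the function lists (0.55), with 8 of 36 higher (22.2%) and 1 lower. Lgals3, galectin-3, went from 1.44 CPM in WS to 34.1 CPM in WD (log2 ratio 4.50, 95% counting interval 4.07 to 5.11) and Spp1, osteopontin, went from 3.58 CPM in WS to 71.05 CPM in WD (log2 ratio 4.28, 95% counting interval 3.99 to 4.65), and Tlr4, the endotoxin receptor, had 3.58 CPM in WS and 32.8 CPM in WD (log2 ratio 3.17). C3, the central complement protein, had 237 counts in WS and 768 in WD (log2 ratio 1.20) in WT and 473 counts in KS and 449 in KD (log2 ratio -0.13). C4b likewise was at 1.19 in WT and 0.12 in Fgf21KO muscle. The median of the list was 0.08 in the Fgf21KO pair. Macrophage markers moved with this list, and their part in it was not tested. Interferon-induced genes were mixed, with 5 higher and 3 lower of 52.

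Of 42 kept collagens and collagen-processing enzymes 10 were lower (23.8%) and 5 higher, with a median of -0.59 and a summed level of 1799 CPM in WS and 1052 in WD. Scaled to total counts only, 11.9% were lower, and in the Fgf21KO pair 3 were lower and 5 higher. The fibrillar genes Col1a1 and Col1a2 were at -1.21 and -1.04, Col5a1 at -1.59 and the basement membrane gene Col4a2 at -1.09. Col25a1, a membrane collagen that guides motor axons to muscle, was higher with 12 counts in WS and 101 in WD (log2 ratio 2.43), as was Col4a5 (2.36). Lox, which cross-links collagen, had 117 counts in WS and 484 in WD (log2 ratio 1.55).

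Among proteases and their inhibitors Serpinb1a, an inhibitor of neutrophil proteases, went from 2.40 CPM in WS to 60.5 CPM in WD (log2 ratio 4.61, 95% counting interval 4.27 to 5.07) and Serpinb6a, from 248 CPM in WS to 1154 CPM in WD (log2 ratio 2.22, 95% counting interval 2.18 to 2.26). Serpine2, protease nexin-1 (-1.53), and Adamtsl4 (-2.31), a matrix protein of microfibrils, were lower. Ccn1, a matricellular protein induced through YAP, had 15.5 CPM in WS and 95.5 CPM in WD (log2 ratio 2.61), and Postn, periostin, had 53.8 CPM in WS and 21.3 CPM in WD (log2 ratio -1.33). Itga9, the receptor for osteopontin and tenascin (1.79), was the 1 higher gene of the integrin and basement membrane list and Itgb4 (-2.36) the lowest of its 7 lower genes.

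Over the 51 function lists with at least 10 kept genes, 8 had a median at least 0.25 above that of all genes and 16 at least 0.25 below. The 8 were cytosolic ribosomal proteins, innate immune genes, chaperones, proteasome, antioxidants, myogenic regulators and satellite cell genes, tubulins and translation factors. The myogenic list lacked Myod1 and Myog. The lowest medians were those of mitochondrially encoded proteins, collagens, glucose use and matrix proteases. With other count filters the numbers were 6 to 9 and 14 to 16. Centring on GC content left the ribosomal median at 0.76, that of glucose use at -0.52 and that of collagens at -0.50. The lists share some members and were chosen with results of these data known.

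The Fgf21KO pair gives the only other view of the same surgery. Of the 715 genes higher in WT, 566 (79.2%) were at least 2-fold higher there and 712 lay above its sham. Of the 769 lower in WT, 459 (59.7%) were at least 2-fold lower and 754 lay below. Seen from the Fgf21KO pair, where 722 of the same 11266 genes were higher (6.41%) and 629 lower (5.58%), 78.4% and 73.0% of them were also called in WT. The 2 log2 ratios of a gene differed by a median of 0.16, and by less than 0.49 for 90% of genes, and 154 genes (1.37%) differed by 1 or more. The pairs differ in genotype as well as in animals, and these cannot be told apart.

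**Figure D5:**
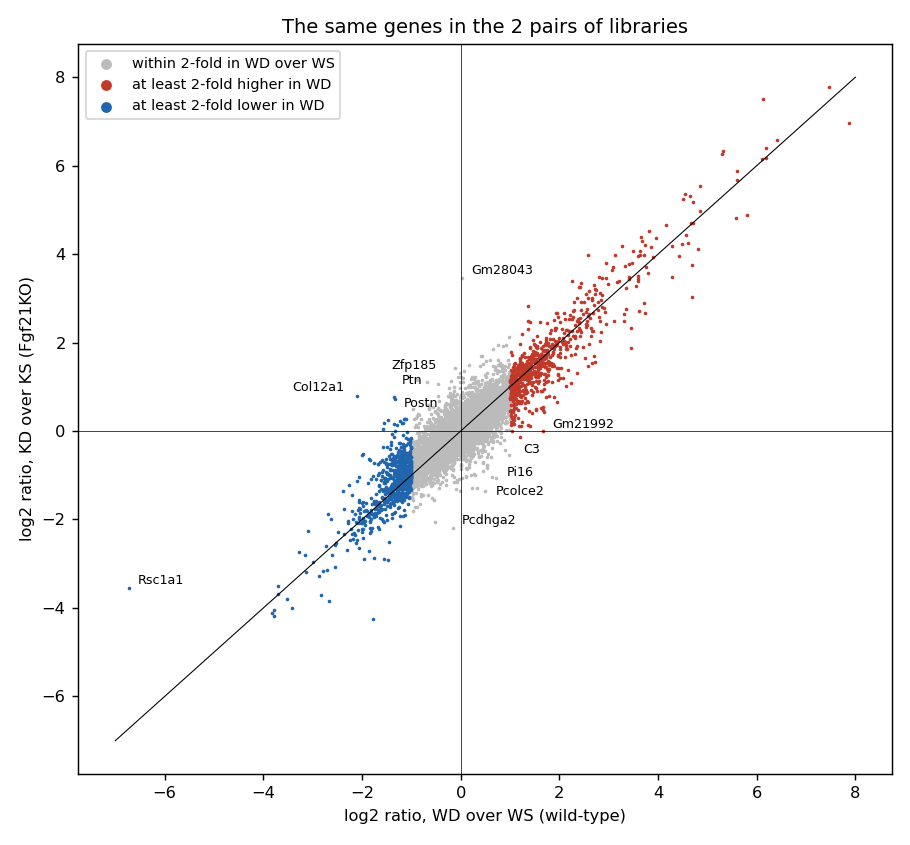
Each point is 1 of the 11266 genes, with its log2 ratio of WD over WS on the x axis and of KD over KS on the y axis; the diagonal marks equal ratios. Most genes called in WT lie near the diagonal, and Rsc1a1, Gm28043 and Col12a1 are among the farthest from it.

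Genes far apart between the pairs are given with their values. Gm28043 went from 44 to 63 counts in WT and from 24 to 297 in Fgf21KO muscle (log2 ratios 0.03 and 3.47). Pi16 stood at 0.72 in WT and -1.05 in Fgf21KO muscle, and Pcolce2, an enhancer of procollagen processing, at 0.49 and -1.36. Pcdhga2, Gm21992 and Zfp185 had differences of 2.03, 1.68 and -2.05 (WT minus Fgf21KO), besides Rsc1a1 (-3.18), Col12a1 (-2.89) and Ptn (-2.13). None of these differences has a replicate.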

How the data were processed

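TA muscle RNA of WS, WD, KS and KD mice was sequenced from stranded poly(A) libraries, 1 pool of 4 muscles per group, collected on day 14. The authors deposited raw read counts by gene and a table of log2 values, which were found to equal log2(count x factor + 1), with 1 factor for each library and no correction for gene length. The submitters' processing notes name GRCm39 and FastQC. The aligner, counter and annotation are not given in the sources used here. Samples were grouped by their labels.

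From the counts, CPM and log2 ratios were computed with edgeR 4.0.16 in R 4.3.3 (TMM, prior count 2) for genes whose counts in WS and WD averaged 50 or more, a gene being called at 2-fold. Intervals (95%, Clopper-Pearson on the count ratio) and the floor of 3 counts, 0.131 CPM in WS and 0.0934 in WD, cover counting error only. With 1 library per group, WD was not tested against WS on its own except at an assumed variation, as an alternative. Methods were tested on simulated data. Gene lists (56 of function, holding 2046 kept genes, and 13 of cell types) were written by hand, and members and lists were chosen with earlier results of these data known. Named genes are the 12 highest and lowest, up to 5 highest and 5 lowest of each list, those named in the study, markers, the 10 most counted and the 5 with the widest difference between pairs in each direction. Other genes, those of the glycolytic order among them, were chosen after their values were seen. Promoter windows came from RefSeq (GRCm38.p6; 77.3% of kept genes had one), and transcript length and GC content from GENCODE M21 (97.9% of kept genes matched). Motifs were searched on both strands. Genes of the lists that are not in the count table were not analysed here, and some named by these rules are not reported here. Alternatives were DESeq2 1.42.0 size factors, total counts with and without mitochondrially encoded genes, prior counts of 0.125 and 5, mean counts of 10 and 200 and no filter, the log2 table, a 4-fold threshold, intervals wholly beyond 2-fold, edgeR's exact test at an assumed variation, centring on GC content (chosen after seeing the data) and edgeR's quasi-likelihood test over 4 libraries.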

Additional observations from a re-analysis of the deposited data

Results flagged for a closer look

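For 3 genes at least 2-fold lower in WT the Fgf21KO pair went the opposite way, with neither counting interval spanning 0. Col12a1, a collagen of fibril surfaces, went from 860 (WS) to 280 counts (WD) and from 322 (KS) to 581 counts (KD), with log2 ratios of -2.10 and 0.79, which differ by -2.89. Ptn, the growth factor pleiotrophin, had 77, 41, 54 and 98 counts in the same order, a difference of -2.13. Postn, periostin, had 1232, 685, 558 and 955 counts, a difference of -2.05. All 3 stood below sham in WD and above sham in KD, and the difference was not tested, since each group is 1 library.

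Among the 2559 genes below the count threshold, 39 had a counting interval wholly above 2-fold higher in WD and 41 wholly beyond 2-fold lower. Opn3, a light-sensitive opsin, had 5 counts in WS and 93 in WD (log2 ratio 3.35) and was also higher in the Fgf21KO pair (3.49). Cdk5r1, the neuronal activator of the kinase Cdk5, had 3 counts in WS and 59 in WD (log2 ratio 3.23) with 1.88 in the Fgf21KO pair, and Gm6548 had 3 counts in WS and 71 in WD (log2 ratio 3.49) with 0.10. On the lower side Gm33543 had 62 counts in WS and 6 in WD (log2 ratio -3.42), Smim1, a blood-group protein of red cells, 84 counts in WS and 10 in WD (log2 ratio -3.28) and Pawr, a pro-apoptotic protein, 34 counts in WS and 4 in WD (log2 ratio -2.98). The 3 genes had log2 ratios of -2.22, -2.56 and -1.48 in the Fgf21KO pair. Intervals for genes with 3 to 5 counts in WS are wide, as for Opn3 (2.45 to 5.38).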

How the results depend on the processing

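No paired analysis was possible within WT because there is 1 library in each group and no further WT pair, so no replicate could be left out either. Higher and lower genes (715 and 769) became 1284 and 354 with total counts only, 460 and 503 when the mean count had to reach 200, 473 and 430 when the counting interval had to lie wholly beyond 2-fold, and 188 and 63 at a 4-fold threshold. With edgeR's exact test at an assumed coefficient of variation of 0.2 the numbers were 448 and 359, and at 0.4 they were 57 and 8. The other alternatives (DESeq2 size factors, the prior counts, a mean count of 10, no filter, the log2 table, total counts without mitochondrially encoded genes, the exact test at 0.1, the quasi-likelihood test of denervation over both pairs with genotype as a block, and GC centring) left both counts within 1.5 times the main ones, and the GC centring was chosen after seeing the data. The share of higher genes also 2-fold higher in the Fgf21KO pair was 83.7% at mean counts of 200 or more, and that of lower genes was 68.0% there and 55.6% with total counts only. Of 1204 gene list percentages under alternatives, 56 left the 95% Wilson interval of the TMM value, 28 of them under total counts only and 15 under total counts without mitochondrially encoded genes. Of 577 single-gene values, 434 left their counting interval under total counts only and 278 under total counts without mitochondrially encoded genes, as these scalings add about the same amount to every log2 ratio. DESeq2's own test was not run, since it needs replicates.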
